A study of Mus musculus with 16 samples.

Results

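The genes described here are 7 mouse genes of the acute phase response and of protease inhibition, Saa3, Lcn2, Serpina3n, Serpina3g, Hp, C3 and Stfa3, followed over 4 conditions of cultured endothelial cells. Measurements were taken from all probe sets named for these genes in the platform annotation of both chips. Of the 7 genes, 5 had a named probe set, with 6 probe sets among 24833 that are not controls. No probe set is named for C3 or Serpina3g in that annotation, so no signal is given for them and only motif matches in their upstream sequences are described. The genes were chosen by their signals in these same arrays, so the members' levels and differences are given as a description and carry no test.

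The conditions were confluent VEC-positive cells, confluent VEC-null cells, sparse VEC-positive cells and sparse VEC-null cells. VEC is VE-cadherin, encoded by Cdh5, the cadherin that joins endothelial cells at their junctions. All cells were described as endothelial cells from mouse embryonic stem cells with a homozygous null VE-cadherin gene, and all were starved for 36 h in MCDB 131 medium with albumin before lysis. The sources used here give neither how the VEC-positive cells gained VEC nor whether a line was 1 clone. RNA of each condition gave 1 cRNA sample, which was hybridised to 2 copies of the MG_U74Av2 array (chip A) and 2 copies of the MG_U74Bv2 array (chip B), 16 arrays in all. Signals below are MAS5 intensities, scaled by the authors to a common target on every array, and the 2 values of a condition are those of copy 1 and copy 2. Differences are in log2(signal + 50), where a value of 1 is a doubling of the signal plus 50, with the standard error (SE) of a limma fit across all probe sets of the chip. The SE and every p value cover only the spread between hybridisations of 1 cRNA sample, not that between cultures.

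Acute phase proteins are made in the liver and, at lower levels, in other tissues when interleukin 6, interleukin 1 and tumour necrosis factor act on cells through the Stat3, C/EBP and NF-kB transcription factors. Some are secreted carriers or defence proteins: serum amyloid A3 (Saa3) is an apolipoprotein, lipocalin 2 (Lcn2) binds bacterial iron carriers, haptoglobin (Hp) captures free haemoglobin and C3 is the central complement component. Others hold proteases in check: Serpina3n and Serpina3g are serpins, a family that mostly traps serine proteases, and Stfa3 is a stefin, an inhibitor of cysteine cathepsins.

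The upstream sequences of 4 measured members are shown because Saa3, Lcn2 and Serpina3n were brightest in 1 condition and Stfa3 in another, and a C/EBP motif stands in Saa3 and Lcn2 and not in Serpina3n or Stfa3. They are taken from RefSeq (assembly GRCm38.p6), run from 250 bases before to 50 bases after the annotated start and read 5′ to 3′ on the gene's strand. Saa3 lies on the minus strand at chr7:46715627-46715926, Lcn2 on the minus strand at chr2:32387690-32387989, Serpina3n on the plus strand at chr12:104406458-104406757 and Stfa3 on the minus strand at chr16:36455343-36455642. Capitals mark matches, on either strand, to the C/EBP motif TTGCNNAA.
Saa3: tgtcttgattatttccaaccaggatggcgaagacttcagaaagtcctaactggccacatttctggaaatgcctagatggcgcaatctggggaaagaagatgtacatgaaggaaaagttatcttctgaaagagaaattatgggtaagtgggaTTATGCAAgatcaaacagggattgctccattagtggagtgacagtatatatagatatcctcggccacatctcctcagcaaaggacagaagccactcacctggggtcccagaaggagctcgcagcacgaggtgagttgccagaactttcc
Lcn2: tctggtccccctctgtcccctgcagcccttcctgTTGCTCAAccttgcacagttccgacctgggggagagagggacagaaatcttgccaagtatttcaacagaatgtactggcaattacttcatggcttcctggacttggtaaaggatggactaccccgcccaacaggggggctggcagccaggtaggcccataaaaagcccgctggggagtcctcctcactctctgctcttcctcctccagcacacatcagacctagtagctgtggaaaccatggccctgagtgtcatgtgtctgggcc
Serpina3n: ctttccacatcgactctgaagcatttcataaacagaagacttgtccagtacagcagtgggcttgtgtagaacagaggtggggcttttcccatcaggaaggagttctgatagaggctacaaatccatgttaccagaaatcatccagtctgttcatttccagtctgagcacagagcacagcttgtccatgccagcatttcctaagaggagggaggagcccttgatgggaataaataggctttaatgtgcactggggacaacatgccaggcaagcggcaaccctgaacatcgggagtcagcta
Stfa3: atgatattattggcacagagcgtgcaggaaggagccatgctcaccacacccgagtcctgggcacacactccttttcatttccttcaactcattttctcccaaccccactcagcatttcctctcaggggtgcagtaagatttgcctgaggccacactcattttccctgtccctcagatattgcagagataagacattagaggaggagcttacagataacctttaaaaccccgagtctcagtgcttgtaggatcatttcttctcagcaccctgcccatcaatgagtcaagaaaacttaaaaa
In Saa3 the match spans bases -99 to -92 from the start, and in Lcn2 bases -216 to -209. The same motif stands in 10.8% of the 32851 promoters of the table. A looser C/EBP motif, TTNNGNAA, which overlaps the first, stands in 40.7% of promoters and was found in Saa3, Lcn2 and Serpina3n and not in the Stfa3 window. Neither the Stat motif TTCNNNGAA (8.3% of promoters) nor the NF-kB motif (4.51%) was found in these 4 windows. Of the members without a probe set, C3 held the C/EBP motif as TTGCGAAA at -45 to -38. The Serpina3g window held the Stat motif as TTCCCAGAA at -33 to -25 and the NF-kB motif at -85 to -76, which overlaps a looser C/EBP match. Of the 7 members, 6 were in the promoter table and Hp was not matched. These matches describe letters in a window and were not tested against binding.

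**Figure D1:**
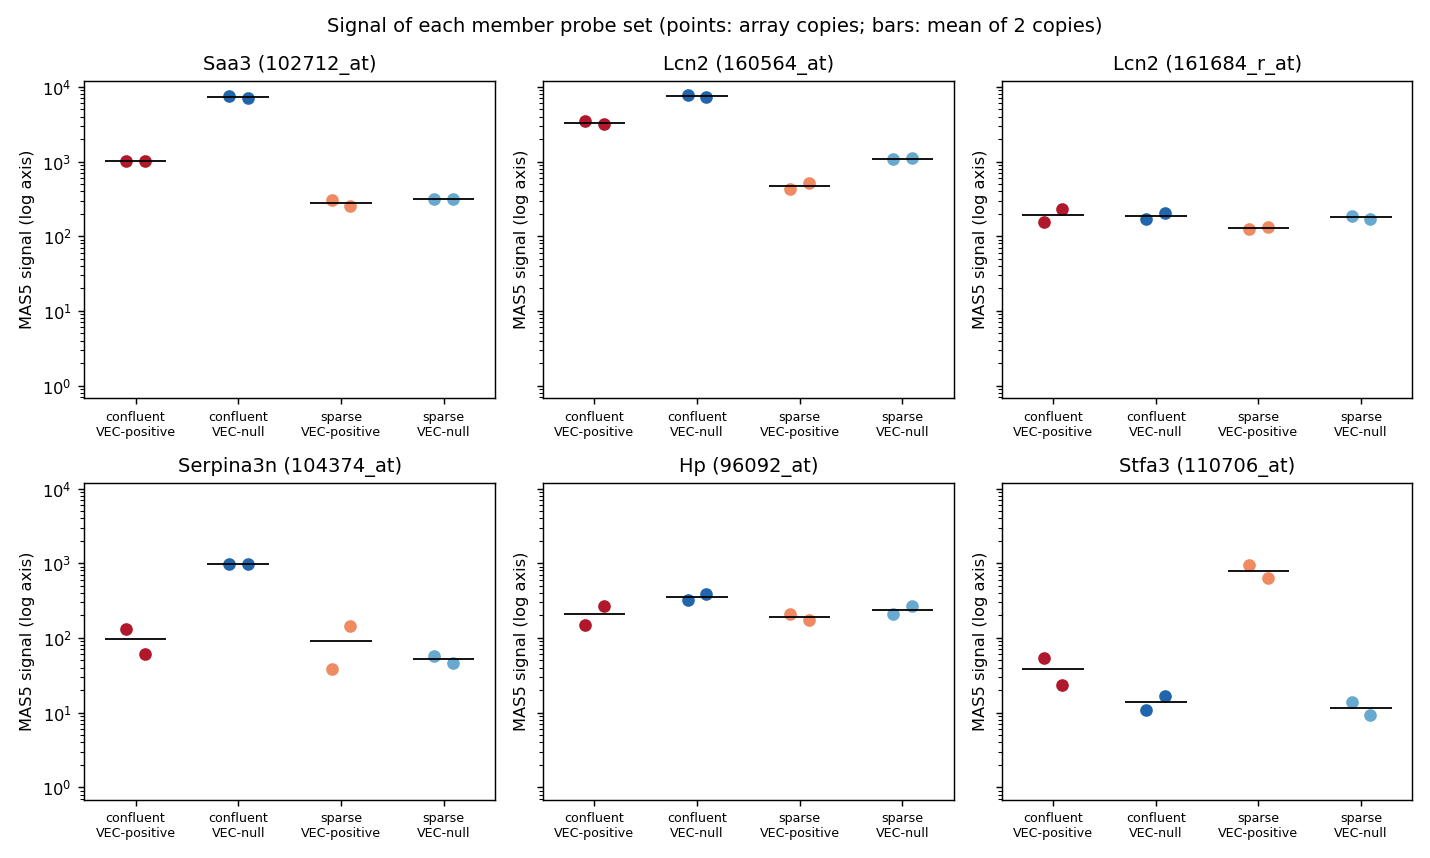
MAS5 signal of the 6 member probe sets on a log axis, by condition, with points for the array copies and bars for the mean of 2 copies. Saa3, Lcn2 (160564_at) and Serpina3n were brightest in confluent VEC-null cells, while Stfa3 reached 933.1 and 639.8 in sparse VEC-positive cells and stayed below 60 elsewhere.

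Saa3 and Lcn2 were among the brightest transcripts of confluent VEC-null cells, and both were dimmer in the 3 other conditions. The Saa3 probe set (102712_at, chromosome 7) gave 1018.8 and 1009.1 in confluent VEC-positive cells, against 7626.8 and 6991 in confluent VEC-null cells. In sparse cells it gave 307.7 and 255.8 with VEC, against 311.2 and 313.6 without it. Confluent VEC-null arrays stood far above all others, confluent VEC-positive arrays came next, and the sparse groups lay side by side. On the log2 scale Saa3 had a VEC difference, VEC-positive minus VEC-null, of -2.79 ± 0.11 in confluent cells, 6.91-fold on the offset scale, and of -0.13 ± 0.11 in sparse cells. The sparse groups did not overlap on these 4 arrays, but their difference was about as large as its SE and came to -0.02 without the second sparse VEC-positive copy on chip A and -0.24 without the first. The density difference, confluent minus sparse, was 1.69 ± 0.11 in VEC-positive cells and 4.34 ± 0.11 in VEC-null cells, or 3.22-fold and 20.3-fold. The gap between these density differences, VEC-positive minus VEC-null, was -2.66 ± 0.15. In rank, Saa3 lay at the 83.4th percentile of chip A in confluent VEC-positive cells, the 98.9th in confluent VEC-null cells, the 61.3rd in sparse VEC-positive cells and the 62.3rd in sparse VEC-null cells.

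Lcn2 followed density in both lines by nearly the same amount and was lower with VEC at either density. Its brighter probe set (160564_at, chromosome 2) gave 3477.1 and 3134.9 in confluent VEC-positive cells, against 7669.2 and 7313.3 in confluent VEC-null cells. The sparse values were 428.2 and 519.7 in VEC-positive cells, against 1080.9 and 1109.4 in VEC-null cells. All 4 groups were separate, in the order confluent VEC-null, confluent VEC-positive, sparse VEC-null, sparse VEC-positive. The VEC difference was -1.17 ± 0.10 when confluent and -1.13 ± 0.10 when sparse. The density difference was 2.68 ± 0.10 in VEC-positive cells and 2.72 ± 0.10 in VEC-null cells, and the gap between them was -0.04 ± 0.15. Saa3 and Lcn2 thus had unlike patterns: the VEC difference of Saa3 lay in confluent cells, while that of Lcn2 had a similar size at both densities.

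The second Lcn2 probe set (161684_r_at) did not show this pattern. It gave 155.9 and 232 in confluent VEC-positive cells, against 168.3 and 206.8 in confluent VEC-null cells, and 123 and 133.5 in sparse VEC-positive cells, against 186.8 and 169.5 in sparse VEC-null cells. The confluent groups overlapped and the sparse VEC-positive arrays were the lowest. Its VEC and density differences lay between -0.36 and 0.44, each with an SE of 0.19, and it sat near the middle of its chip, between the 48.5th and 52.6th percentile. The suffix _r marks a probe set for which Affymetrix relaxed its probe selection rules. Which probe set tracks the Lcn2 transcript was not tested.

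Haptoglobin was dim and moved little. The Hp probe set (96092_at, chromosome 8) gave 149.8 and 265.7 in confluent VEC-positive cells, against 318.6 and 384.7 in confluent VEC-null cells. It gave 209.9 and 173.2 in sparse VEC-positive cells, against 209.4 and 264.6 in sparse VEC-null cells. Only the confluent VEC-null arrays stood above the others, and the remaining 3 groups overlapped. The VEC difference was -0.67 ± 0.22 in confluent cells and -0.25 ± 0.22 in sparse cells. The confluent value rested on the copy used: it was -0.34 without the first VEC-positive copy and -1 without the second. The density difference was 0.06 ± 0.22 in VEC-positive cells and 0.49 ± 0.22 in VEC-null cells. On chromosome 8, where Hp lies, the median VEC difference was 0.30 in confluent and 0.23 in sparse cells.

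Among the protease inhibitors, Serpina3n was bright in 1 condition and dim in 3. Its probe set (104374_at, chromosome 12) gave 132.3 and 60.8 in confluent VEC-positive cells, against 981.6 and 964.1 in confluent VEC-null cells. In sparse cells it gave 38.5 and 145 with VEC, against 56.7 and 46.3 without. Confluent VEC-null arrays were separate from all others, and the other 3 groups overlapped with copies that differed by up to several-fold. The VEC difference was -2.85 ± 0.34 in confluent cells and 0.37 ± 0.34 in sparse cells, and the sparse value turned to -0.20 without the second sparse VEC-positive copy and reached 0.94 without the first. The density difference was 0.11 ± 0.34 in VEC-positive cells and 3.33 ± 0.34 in VEC-null cells. The VEC-positive density value lay between -0.46 and 0.68 when single copies were left out. With Saa3, Serpina3n shared a VEC difference in confluent cells of nearly 3 log2 units, but it had no separate level in confluent VEC-positive cells.

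Stfa3 ran the other way. The probe set (110706_at, chip B, chromosome 16) gave 54.3 and 23.3 in confluent VEC-positive cells, against 10.9 and 16.9 in confluent VEC-null cells. It gave 933.1 and 639.8 in sparse VEC-positive cells, against 13.9 and 9.2 in sparse VEC-null cells. Sparse VEC-positive arrays were the only bright ones, at the 78.1st percentile of chip B, while VEC-null cells lay at the 3.3rd percentile when confluent and the 3.2nd when sparse. The VEC difference was 3.74 ± 0.36 in sparse cells, 13.4-fold on the offset scale, and 0.45 ± 0.36 in confluent cells. The density difference was -3.24 ± 0.36 in VEC-positive cells and 0.05 ± 0.36 in VEC-null cells. Since the other 3 levels lie near or below the offset, this fold depends on it. The sparse VEC difference ranged from 2.21 to 4.85 over the settings tried, with the additive fit to averaged copies left out.

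**Figure D2:**
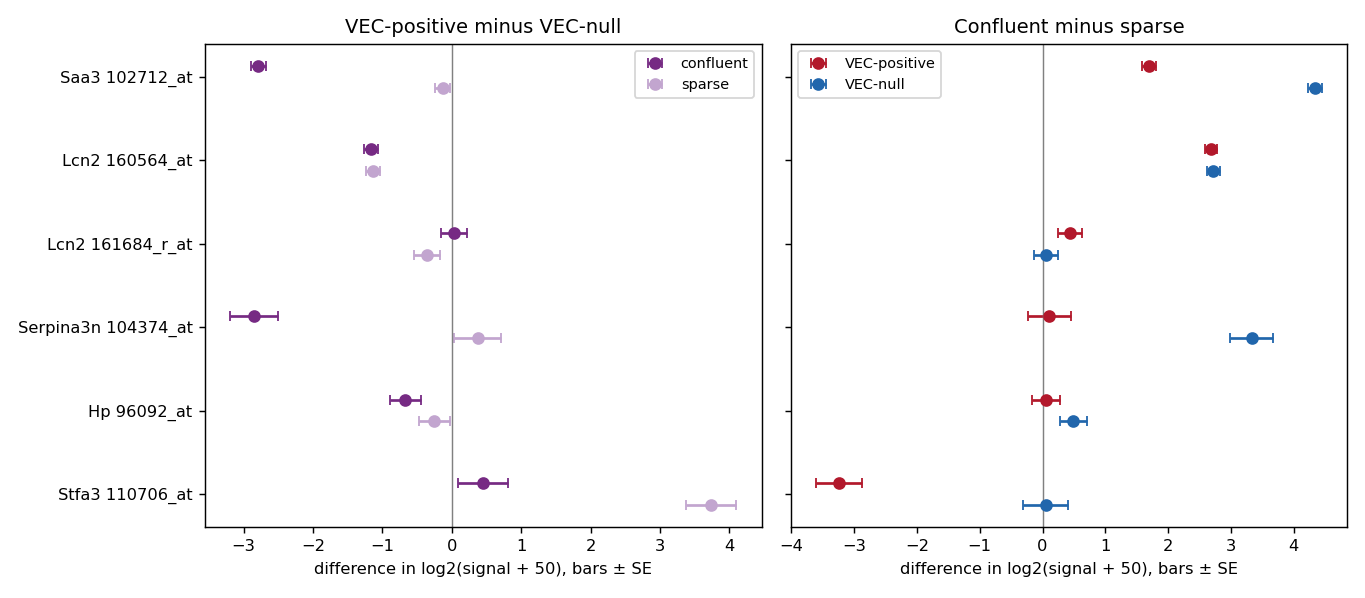
Differences in log2(signal + 50) for each member probe set, with bars of ± SE: VEC-positive minus VEC-null at each density (left) and confluent minus sparse in each line (right). Saa3 and Serpina3n lie near -2.8 in the confluent VEC comparison and near 0 in the sparse one, Lcn2 160564_at has nearly equal values in each pair, and Stfa3 has its large values in sparse cells and in VEC-positive cells.

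All 6 member probe sets were kept by the filter on dim probe sets, which asked for 1 condition mean above the median of the chip. Serpina3n passed it only through confluent VEC-null cells and Stfa3 only through sparse VEC-positive cells, so a difference between conditions was built into their being kept. The same holds for other genes named below that were kept through 1 condition alone. Among these are Pdgfrb, Pparg, Krt19, Il1r1, Bcl3, Ltf, S100a8 and C3ar1. The closest relatives of the members were mostly dim: of 27 further probe sets named for the Saa, Serpina and cystatin families, 4 were kept, 2 for Saa2 and 1 each for Cstb and Cst3. No other probe set of the Serpina3 cluster than that of Serpina3j (104993_at) was named, and its condition means lay between 54.8 and 69.4. Serpina3 genes, stefin A genes and serum amyloid A genes each belong to a group of closely related genes, and how far a probe set reads its gene's relatives was not tested.

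The endothelial label held in the marker genes, at uneven levels. Of 12 endothelial markers, 11 had a probe set and all 11 were kept, led by Tie1, Emcn and Eng. Pecam1 was the dimmest, with condition means between 118 and 180.8 near the chip A median of 160. Its confluent VEC-null copies gave 51.1 and 286.8. Kdr, Tek and Flt1 averaged 289.4, 232.4 and 180.2 in sparse VEC-positive cells and 595.5, 301.2 and 203.2 in sparse VEC-null cells. The signal summed over all 11 markers was 47985 and 47117 in confluent VEC-positive cells and 55722 and 55919 in confluent VEC-null cells. The sparse sums were 27856 and 25303 in VEC-positive cells and 15870 and 15940 in VEC-null cells. At confluence 6 of 11 markers were higher in VEC-positive cells and 8 of 11 in VEC-null cells, with none lower. Over all tested probe sets 8.13% were higher and 7.21% lower in VEC-positive cells, and 9.08% and 7.40% in VEC-null cells. Emcn, Eng, Cd34 and Pecam1 did not pass in VEC-positive cells (differences between -0.09 and 0.18), and neither did Cdh5 (0.85). Saa3 and Lcn2 were also brighter at confluence, and the part of the endothelial markers in those differences was not tested. In bulk RNA such as this, fewer cells of a kind and less RNA per cell cannot be told apart. Cdh5 itself gave 2607.2 and 2525.8 in confluent VEC-positive cells, against 2707.2 and 2508.7 in confluent VEC-null cells, a difference of -0.02 ± 0.09 (adjusted p = 0.87), so its probe set does not separate the labelled lines. Whether that probe set reads a deleted stretch of the null gene is not given. In sparse cells the Cdh5 difference was 0.13 ± 0.09 (adjusted p = 0.26).

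Markers of other cells bear on single members. None of the 8 measured hepatocyte markers was kept, with condition means between 4.8 and 95.4. Of 15 measured macrophage and neutrophil markers 6 were kept, and their list summed to 1690 and 1866 in confluent VEC-positive cells, 1925 and 2574 in confluent VEC-null cells, 1120 and 1272 in sparse VEC-positive cells and 1140 and 1140 in sparse VEC-null cells. The defining leukocyte gene Ptprc lay between 6.7 and 20.4 on all arrays and Itgam between 8.9 and 34.1. Cd68, also of this list, gave 288.4 and 281.1 in confluent VEC-positive cells, 746.5 and 1073.5 in confluent VEC-null cells, 341.8 and 363.9 in sparse VEC-positive cells and 294.8 and 251.7 in sparse VEC-null cells. Like Saa3 and Serpina3n it was brightest in confluent VEC-null cells, with a VEC difference of -1.50 ± 0.17 (limma adjusted p = 0.00015) and a density difference in VEC-null cells of 1.55 ± 0.17 (adjusted p = 4.4e-05), and its part in their differences was not tested. Of the 6 kept genes of this list, Cd68 was the 1 that passed as lower with VEC at confluence. Ltf was the 1 that passed as higher, by 1.42 ± 0.22 (adjusted p = 0.0011). By density in VEC-null cells 3 of the 6 were higher and none lower, beside 9.08% and 7.40% of all tested probe sets. Of 10 measured epithelial and mesothelial markers 3 were kept, and Msln and Krt19 were the 2 that were brightest, like Stfa3, in sparse VEC-positive cells. The list summed to 688 and 778 in confluent VEC-positive cells, 723 and 926 in confluent VEC-null cells, 4643 and 5022 in sparse VEC-positive cells and 1195 and 1084 in sparse VEC-null cells. Mesothelin (Msln) gave 3268.3 and 3503.1 in sparse VEC-positive cells, against 594 and 599.5 in sparse VEC-null cells, and keratin 19 (Krt19) gave 861.8 and 947.6 against 3.3 and 4.5. The other kept marker, Cdh1, had 286.2 and 351.8 in sparse VEC-positive cells, against 350.5 and 259.7 in sparse VEC-null cells, and these groups overlapped. The 7 markers that were not kept include Krt7, Krt14 and Epcam, below 35 on every array, and Upk3b, Wt1 and Krt18, whose means were lower in sparse than in confluent VEC-positive cells. The part of Msln and Krt19 in the Stfa3 result was not tested. Of 9 measured fibroblast and adipocyte markers 5 were kept, and their sums lay between 1267 and 2351. Among them Pdgfrb averaged 10.2 in confluent VEC-positive cells, 327.6 in confluent VEC-null cells, 9.5 in sparse VEC-positive cells and 13 in sparse VEC-null cells. Pparg averaged 60.2, 263.3, 32.7 and 52.6 in the same order. Both were brightest where Saa3 and Serpina3n were, with VEC differences at confluence of -2.65 ± 0.20 and -1.51 ± 0.20 (adjusted p = 1.4e-05 and 0.00037), whereas Dcn was higher with VEC there by 1.18 ± 0.14 (adjusted p = 0.00018). Pdgfrb and Pparg were kept through confluent VEC-null cells alone, so a difference was built into their being tested. Dcn lies on chromosome 10, where the median VEC difference at confluence was 0.45. The part of these genes in the members' differences was not tested. Arrays of confluent VEC-positive cells also had the lowest signal of the Gapdh control, 12920 and 12788 on chip A, where the other 6 arrays lay between 16729 and 21421.

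To place the members, the 2 genes with the closest pattern were named for each probe set. Closeness was the root mean square difference of centred log2 condition means over the 4 conditions, among 8955 genes. Lcn2 (160564_at) was closest to Kdr, a receptor of vascular endothelial growth factor, at 0.125 log2 units, and to Agrn, the matrix protein agrin, at 0.230. Kdr gave 2337.4 and 2195.1 in confluent VEC-positive cells, 4319.8 and 4148.9 in confluent VEC-null cells, 256.7 and 322 in sparse VEC-positive cells and 609 and 581.9 in sparse VEC-null cells. It held the order of Lcn2 at a lower signal in every condition.

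Saa3 was closest to Ednrb, the endothelin B receptor, at 0.286 and to Nid2, the basement membrane protein nidogen 2, at 0.329. Ednrb averaged 106 ± 30 in confluent VEC-positive cells, 682.8 ± 50 in confluent VEC-null cells, 5 ± 0.071 in sparse VEC-positive cells and 6.2 ± 1.2 in sparse VEC-null cells (SD, n = 2 copies each). Serpina3n was closest to Dll4, a Notch ligand of endothelial cells, at 0.0989 and to Sh3gl3 at 0.143. Dll4 had 212.9 and 57.3 in confluent VEC-positive cells, 1512.6 and 1105.6 in confluent VEC-null cells, 113.4 and 85.1 in sparse VEC-positive cells and 96.1 and 74.1 in sparse VEC-null cells. As with Serpina3n, confluent VEC-null arrays alone were bright and the other 3 groups overlapped.

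Stfa3 was closest to Anxa8, a calcium-dependent membrane-binding annexin, at 0.0383 and to Krt19 at 0.306. Anxa8 gave 1193.8 and 1221.9 in sparse VEC-positive cells, against 40.1 and 46.5 in sparse VEC-null cells, and 75.8 and 76.6 in confluent VEC-positive cells, against 45.9 and 38.5 in confluent VEC-null cells. Hp and the dim Lcn2 probe set had nearly flat patterns, so many genes lay close: Pik3r4 and P2rx7 stood at 0.0379 and 0.0395 from Hp, and Vps8 and Mis12 at 0.0218 and 0.0253 from 161684_r_at. With 4 conditions a close pattern is a description of these cRNA samples. Kdr lies on chromosome 5, where the median VEC difference was -0.31 in confluent and -0.34 in sparse cells. Ednrb, Nid2 and Anxa8 lie on chromosome 14, where these medians were 0.23 and 0.26.

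**Figure D3:**
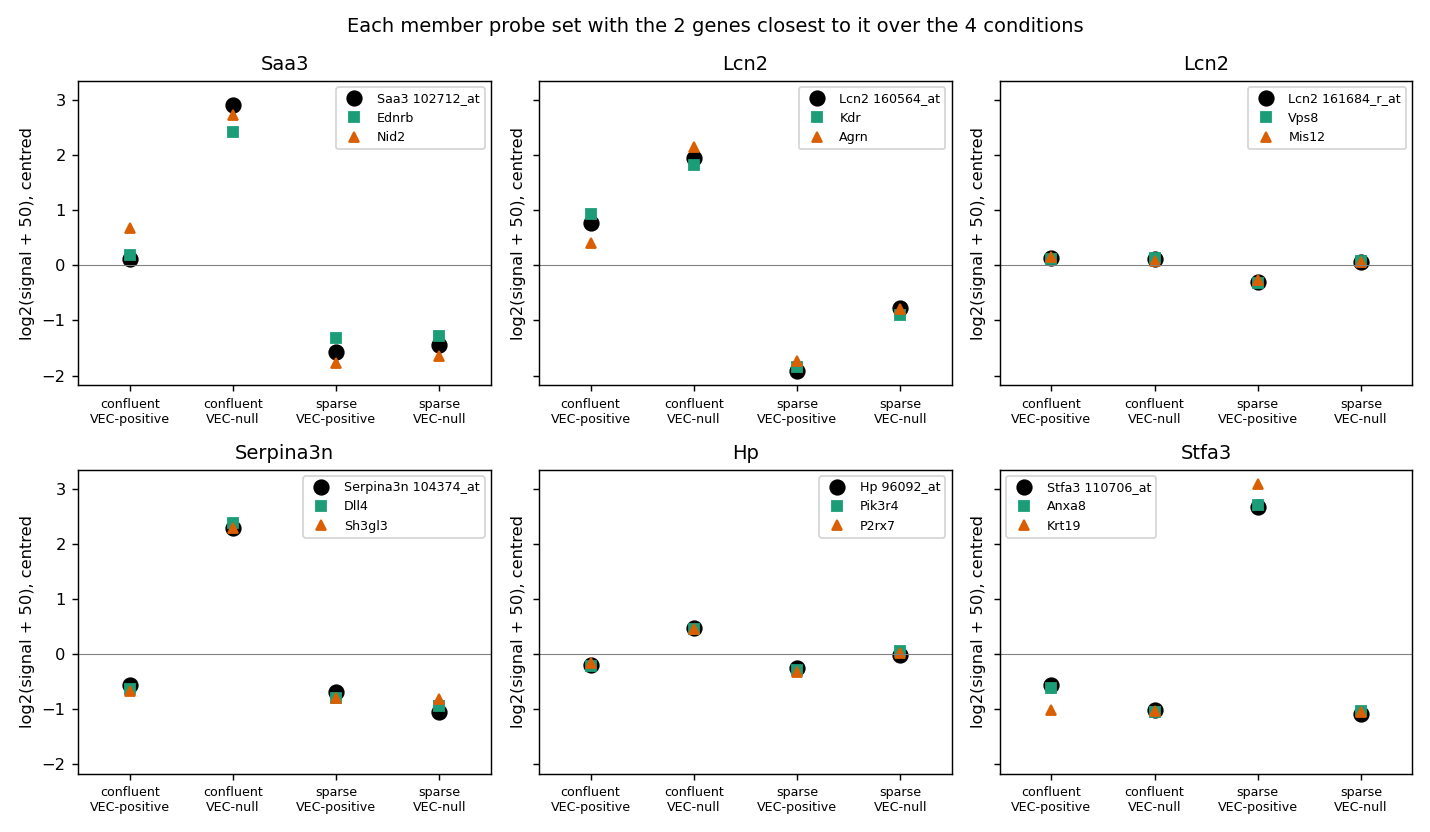
Condition means of log2(signal + 50), each centred on its own mean over the 4 conditions, for every member probe set (black) and the 2 genes closest to it (green squares and orange triangles). Kdr follows Lcn2, Dll4 follows Serpina3n and Anxa8 follows Stfa3 closely, while Ednrb and Nid2 follow Saa3 with larger gaps.

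The surrounding pathways were read from 8 lists of 230 genes, of which 189 had a probe set and 85 were kept. A gene passed where its limma adjusted p (Benjamini-Hochberg over 14301 probe sets of both chips) was below 0.05 and its log2 difference at least 1 in size. In confluent cells 6 of 85 genes were higher and 11 lower in VEC-positive than in VEC-null cells. Over all tested probe sets 4.29% were higher and 3.62% lower in this comparison. In sparse cells 10 were higher and 6 lower, beside 5.43% and 4.27% of all. At confluence against sparse culture, 17 genes were higher and 6 lower in VEC-positive cells (8.13% and 7.21% of all) and 21 were higher and 4 lower in VEC-null cells (9.08% and 7.40% of all). The difference between the density responses was higher in VEC-positive cells for 4 genes and lower for 11 (5.89% and 6.31% of all). The median of the 85 genes was -0.18, -0.03, 0.30, 0.42 and -0.18 in these 5 comparisons in the order given, and that of all tested probe sets between -0.03 and 0.02. The first 4 comparisons use each condition more than once, so their counts share arrays.

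**Figure D4:**
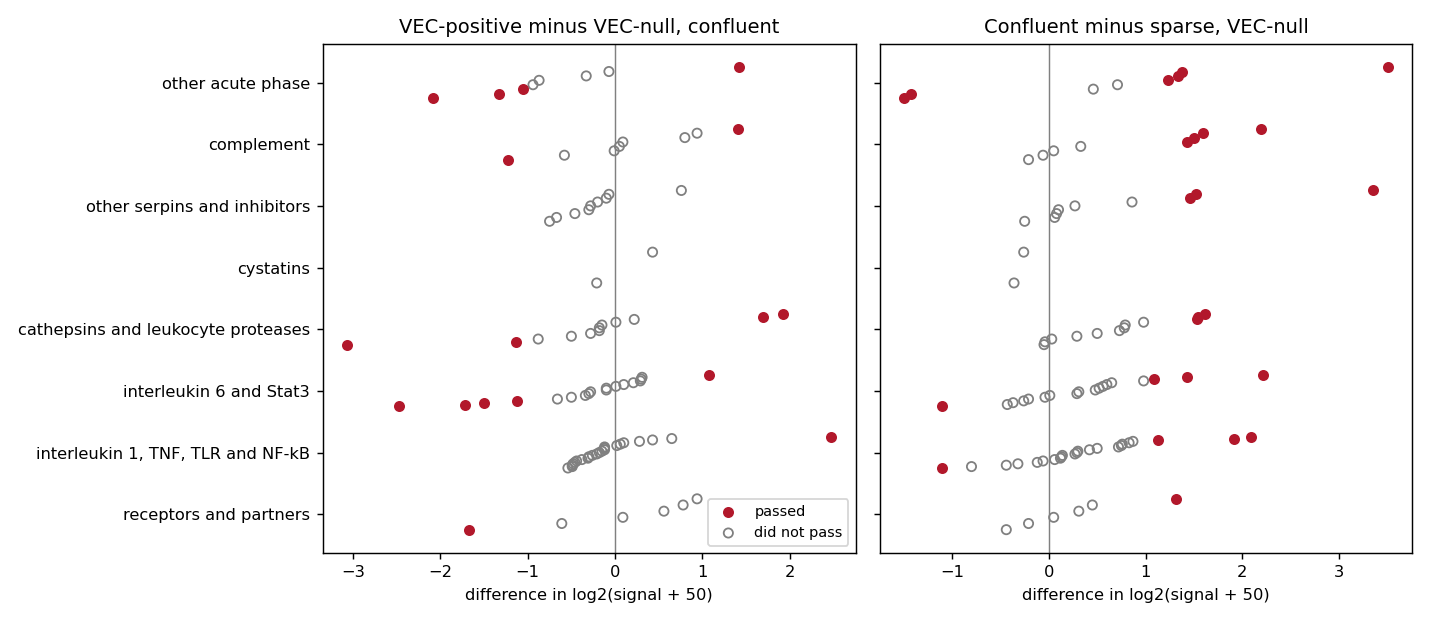
Difference in log2(signal + 50) of the 85 kept pathway genes by list (C3ar1 is in both complement and receptors), VEC-positive minus VEC-null in confluent cells (left) and confluent minus sparse in VEC-null cells (right), with filled points for genes that passed. On the left 6 genes passed as higher and 11 as lower, and on the right 21 passed as higher and 4 as lower.

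By their representative probe sets, transcripts of Il6, Socs3, Bcl3 and Cebpb were lower with VEC in confluent cells, and that of Il6 was lower in sparse cells as well. Of 18 kept genes of the interleukin 6 and Stat3 list, 1 was higher and 4 were lower with VEC in confluent cells, with a list median of -0.19, and in sparse cells 1 was lower and none higher, with a median of -0.04. Il6, the cytokine itself, gave 50 and 44.5 in confluent VEC-positive cells, against 272.2 and 266.7 in confluent VEC-null cells. In sparse cells Il6 gave 21.1 and 23 with VEC, against 171.6 and 175.4 without. The lines were separate at both densities, with differences of -1.72 ± 0.17 (limma adjusted p = 6.5e-05) in confluent cells and -1.63 ± 0.17 (adjusted p = 6.3e-05) in sparse cells. These sizes depend on the offset, since the VEC-positive signals lie at or below it. With an offset of 200 they were -0.93 and -0.75, under the size threshold, and with 16 they were -2.18 and -2.32. Il6 lies on chromosome 5, where the median of 574 probe sets was -0.31 and -0.34 in these comparisons. Taking that median away left -1.41 and -1.29.

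Il6 had a larger VEC difference in sparse cells than Saa3 or Serpina3n did, and its level by density differed from theirs. Its density difference was 0.43 ± 0.17 in VEC-positive cells and 0.52 ± 0.17 in VEC-null cells, and neither passed. The signal transducers Il6st and Stat3 did not pass between the lines. Il6st, the shared receptor subunit gp130, had VEC differences of 0.21 and -0.35 in confluent and sparse cells, and Stat3 of -0.10 and 0.32. A second Il6st probe set (98349_at) had -0.70 and -0.31, the first of opposite sign to 0.21. A second Stat3 probe set (99100_at) had -0.07 and 0.55. By density, Il6st passed in VEC-positive cells (1.12 ± 0.11, adjusted p = 3e-05) and had 0.56 in VEC-null cells, while Stat3 passed in VEC-null cells (1.09 ± 0.12, adjusted p = 6.1e-05) and had 0.67 in VEC-positive cells. The Stat3 call ended, at 0.98, without the first confluent VEC-null copy, while 99100_at passed in VEC-null cells at 1.38 ± 0.11 (adjusted p = 8.1e-06). By density the Il6st probe set 98349_at had 1.20 in VEC-null and 0.81 in VEC-positive cells, the reverse order of the first.

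Socs3, a Stat3 target that blocks the receptor, and Bcl3, an NF-kB cofactor, had the pattern of a peak in confluent VEC-null cells. Socs3 (162206_f_at) gave 177.8 and 161.4 in confluent VEC-positive cells, against 417.5 and 439.5 in confluent VEC-null cells, a difference of -1.12 ± 0.16 (adjusted p = 0.00054). With an offset of 200 this difference was -0.77, under the size threshold. In sparse cells Socs3 had 211.5 and 158.1 with VEC, against 201.6 and 182.5 without, and these groups overlapped. A dimmer Socs3 probe set, 92232_at, had -2.04 in confluent cells and 1.74 in sparse cells, and 111736_at had -0.76 and 0.15. Bcl3 (102239_at) gave 64.9 and 56.1 in confluent VEC-positive cells, against 480.6 and 654.8 in confluent VEC-null cells, a difference of -2.47 ± 0.27 (adjusted p = 0.00013). Bcl3 in VEC-null cells was 2.22 ± 0.27 higher at confluence (adjusted p = 1e-04). Its other probe set, 105489_at, had only -0.46 and 0.70 in these comparisons, so the size of the Bcl3 differences depends on the probe set.

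Cebpb and Cebpd encode C/EBP factors. Cebpb gave 846.7 and 866.2 in confluent VEC-positive cells, against 2598.9 and 2419.3 in confluent VEC-null cells, and 1539.2 and 1564.4 in sparse VEC-positive cells, against 2879.8 and 2920.1 in sparse VEC-null cells. The 4 groups were separate, with VEC-null above VEC-positive cells at each density. The VEC difference of Cebpb was -1.50 ± 0.08 in confluent cells (adjusted p = 2.4e-06) and -0.88 ± 0.08 in sparse cells, which missed the size threshold. Cebpd averaged 1247 ± 52 in confluent VEC-positive cells, 2003 ± 23 in confluent VEC-null cells, 2647.1 ± 30 in sparse VEC-positive cells and 2712.8 ± 120 in sparse VEC-null cells (SD, n = 2 copies each), and its sparse groups overlapped. A second Cebpd probe set (164853_r_at) had a mean of 64.1 in sparse VEC-positive cells and of at most 10 in the other conditions. At confluence Cebpd fell by 1.06 ± 0.08 in VEC-positive cells (-1.06, adjusted p = 5.6e-06) and had -0.43 ± 0.08 in VEC-null cells. Pias3, an inhibitor of Stat3, was higher in confluent VEC-positive cells by 1.08 ± 0.12 (adjusted p = 0.00018), with 0.46 and 0.53 at its other probe sets. Pim1, a kinase induced by Stat3, was lower at confluence in both lines (-1.06 and -1.11), and each call ended without 1 copy, at -0.99 without the first sparse VEC-positive copy and at -0.98 without the first confluent VEC-null copy.

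**Figure D5:**
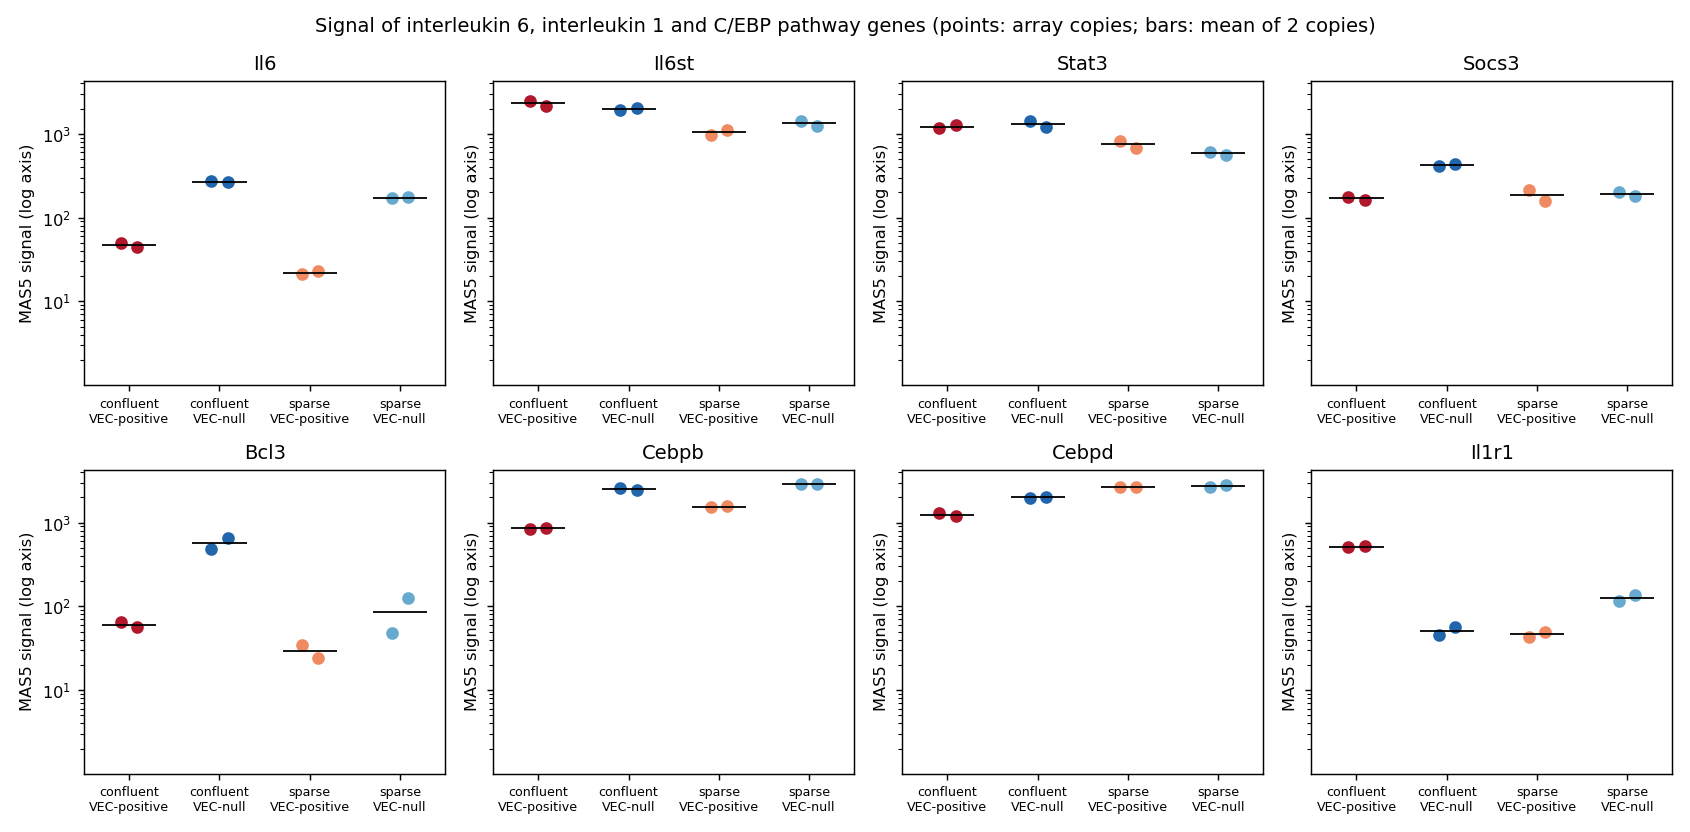
MAS5 signal on a log axis of 8 genes of the interleukin 6, interleukin 1 and C/EBP pathways, by condition, with points for array copies and bars for the mean of 2 copies. Il6 separates the lines at both densities, Socs3 and Bcl3 are highest in confluent VEC-null cells, Cebpb is lowest in confluent VEC-positive cells and Il1r1 is highest there.

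In the list of interleukin 1, tumour necrosis factor and Toll-like receptor signalling, 1 of 23 kept genes was higher in VEC-positive cells at each density and none was lower. For confluent cells this was Il1r1, the signalling receptor of interleukin 1. Il1r1 gave 507.8 and 518 in confluent VEC-positive cells, against 45.2 and 56.6 in confluent VEC-null cells, and 42.9 and 49.7 in sparse VEC-positive cells, against 115.4 and 136.8 in sparse VEC-null cells. Its differences were 2.48 ± 0.17 when confluent (adjusted p = 7.2e-06) and -0.87 ± 0.17 when sparse. It was kept through confluent VEC-positive cells alone, so a difference was built into its being tested. None of the 6 member probe sets had its highest mean in confluent VEC-positive cells, except the flat Lcn2 probe set 161684_r_at. The inhibitors of NF-kB, Nfkbia and Nfkbiz, passed in none of the 5 comparisons, with differences between -0.48 and 0.29 for Nfkbia and between -0.15 and 0.06 for Nfkbiz. By density, 5 genes of the list were higher in VEC-positive and 3 in VEC-null cells. The tumour necrosis factor receptor Tnfrsf1a (1.31 and 2.09), the Toll-like receptor Tlr3 (2.10 and 1.91) and Relb (1.57 and 1.13) passed in both lines, in the order VEC-positive and VEC-null. Tnfaip3, a brake on NF-kB, was lower at confluence (-1.92 and -1.11) and was higher with VEC in sparse cells by 1.09 ± 0.26 (adjusted p = 0.0078), or 0.73 less the median of chromosome 10 (0.36), which is under the size threshold. The sparse call ended without the first VEC-positive copy (0.93) or the second VEC-null copy (0.95), and the VEC-null density call without the second confluent copy (-0.73) or the first sparse copy (-0.97).

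Of 8 other kept acute phase and defence genes, 1 was higher and 3 were lower in confluent VEC-positive cells, and 3 were lower in sparse VEC-positive cells. Ceruloplasmin (Cp), a copper-carrying ferroxidase, gave 211.9 and 221.7 in confluent VEC-positive cells, against 1090.1 and 1087.3 in confluent VEC-null cells. It gave 92.8 and 90.8 in sparse VEC-positive cells, against 671.7 and 622.2 in sparse VEC-null cells. Cp was therefore lower with VEC at both densities, as Lcn2 was, by -2.09 ± 0.12 (adjusted p = 2.7e-06) and -2.30 ± 0.12 (adjusted p = 1.4e-06), but its density differences of 0.91 and 0.71 did not reach the size threshold. The metallothioneins Mt1 and Mt2, which bind zinc and copper, were also lower with VEC, at -1.33 and -1.06 in confluent cells and -1.16 and -2.17 in sparse cells. With an offset of 200 the confluent values were -0.93 for Mt1 and -0.82 for Mt2, under the size threshold. Both genes lie on chromosome 8, where the median VEC difference was 0.30 in confluent and 0.23 in sparse cells. Less that median, Mt1 and Mt2 had -1.62 and -1.35 in confluent cells and -1.39 and -2.40 in sparse cells. The confluent Mt2 call ended, at -0.99 and -0.94, without the second VEC-positive or the first VEC-null copy. A brighter Mt1 probe set (164402_r_at) had -0.41 and -0.06 and did not pass.

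Lactoferrin (Ltf), which binds iron, was the gene that was higher. It gave 438.6 and 368.3 in confluent VEC-positive cells, against 86.5 and 158.5 in confluent VEC-null cells, and between 20.3 and 24.9 in sparse cells of both lines. The difference was 1.42 ± 0.22 (adjusted p = 0.0011), so the iron-binding Ltf and Lcn2 had opposite VEC differences at confluence and the same direction by density. The Ltf density difference in VEC-null cells, 1.23 ± 0.22, no longer passed at 0.93 without the second confluent VEC-null copy. With an offset of 200 this density difference was 0.53 and the VEC difference at confluence 0.91, both under the size threshold.

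By density, 2 of these 8 genes were higher and 1 lower in VEC-positive cells, and 4 were higher and 2 lower in VEC-null cells. In the test of the difference between these responses 2 were higher and 2 lower. Lbp, the lipopolysaccharide-binding protein, gave 4125.6 and 4178.6 in confluent VEC-positive cells, against 363.8 and 370 in sparse VEC-positive cells. In VEC-null cells Lbp gave 4474.5 and 4229.6 when confluent, against 344.2 and 326 when sparse. Its density differences of 3.33 and 3.51 (SE 0.09, adjusted p = 9.8e-09 and 6.7e-09) exceeded those of Lcn2, while its VEC differences were -0.07 and 0.11 and did not pass. Saa2, the closest measured relative of Saa3, was dim. It gave 216.3 and 141.9 in confluent VEC-positive cells, 366.8 and 361.1 in confluent VEC-null cells, 117.6 and 114.3 in sparse VEC-positive cells and 129.1 and 91.3 in sparse VEC-null cells. Saa2 passed by density in VEC-null cells alone, at 1.38 ± 0.20 (adjusted p = 0.00027), where a second probe set (100333_at) had 0.80, and its VEC difference in confluent cells was -0.87 ± 0.20 (adjusted p = 0.0074), short of the size threshold. S100a8, a calprotectin subunit, passed in the same comparison at 1.34 ± 0.23 (adjusted p = 0.00096).

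Of 28 measured complement genes 8 were kept. At confluence 5 of these 8 were higher in VEC-positive cells and 4 of 8 in VEC-null cells, with none lower. Over all tested probe sets 8.13% were higher and 7.21% lower in VEC-positive cells, and 9.08% and 7.40% in VEC-null cells. Clusterin (Clu), an inhibitor of the terminal complex, had 458.3 and 406.8 in confluent VEC-positive cells, 1156.8 and 1012.9 in confluent VEC-null cells, 139 and 142 in sparse VEC-positive cells and 193.4 and 204.1 in sparse VEC-null cells. It passed by density in both lines (1.34 and 2.19) and was lower with VEC in confluent cells by -1.23 ± 0.13 (adjusted p = 0.00011), where a second probe set (161294_f_at) had -0.47. Clu lies on chromosome 14, where the median VEC difference at confluence was 0.23, and less that median it had -1.47. Cd55, which breaks up the C3 convertases, was higher with VEC at both densities, at 1.41 and 1.28 with SE 0.15 (adjusted p = 0.00013 and 0.00018), and at 1.61 and 1.38 on its brighter probe set 107626_at. Another Cd55 probe set, 164905_r_at, had means below 20 throughout and no such difference. C3ar1, the receptor of the C3a fragment, averaged 198.3 ± 9.4 in confluent VEC-positive cells, 80.5 ± 27 in confluent VEC-null cells, 74 ± 14 in sparse VEC-positive cells and 99.8 ± 23 in sparse VEC-null cells (SD, n = 2 copies each). Its density difference in VEC-positive cells, 1.01 ± 0.21 (adjusted p = 0.0032), and that of C5ar1, 1.03 ± 0.20 (adjusted p = 0.0022), each fell under 1 without 1 copy, at 0.89 and 0.93 without the second sparse VEC-positive copy. C1ra passed in both lines (1.25 and 1.50), and lost its call without 1 of several copies, at 0.91 without the second sparse VEC-positive copy and at 0.80 without the second sparse VEC-null copy.

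Of 9 other kept serpins and inhibitors, each by its representative probe set, none passed between the lines when confluent, and 3 were higher with VEC in sparse cells. A second Serpinb1a probe set (109993_at) did pass when confluent, with means of 621.7 in VEC-positive and 2381.8 in VEC-null cells and a difference of -1.86 ± 0.15 (adjusted p = 2.6e-05), against -0.67 ± 0.23 on the first. Serpinb6a gave 5727.4 and 6050.9 in sparse VEC-positive cells, against 2165.8 and 2461 in sparse VEC-null cells, a difference of 1.33 ± 0.09 (adjusted p = 6.9e-06). Serpinb6b and Tfpi, the inhibitor of tissue factor, were higher by 1.47 ± 0.23 and 1.02 ± 0.13, of which Tfpi came to 0.94 without the second sparse VEC-null copy and had 0.22 on a second probe set (110098_at). Serpinb9, an inhibitor of granzyme B, gave 4957.1 and 5065.3 in confluent VEC-positive cells, against 817.5 and 854.8 in sparse VEC-positive cells. In VEC-null cells Serpinb9 gave 8289.1 and 8612.5 when confluent, against 805.2 and 757.2 when sparse. Its density differences of 2.51 and 3.35 (SE 0.08, adjusted p = 1.9e-08 and 6.6e-09) followed the direction of Saa3 in both lines. By density Serpinb1a passed in VEC-null cells (1.46 ± 0.23) and had 0.59 ± 0.23 in VEC-positive cells.

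Cst3 and Cstb, the kept cystatins beside Stfa3, were bright in all conditions and passed in none of the 5 comparisons. Cstb, a stefin like Stfa3, gave 7384.9 and 8110.5 in sparse VEC-positive cells, against 4020.1 and 4152.9 in sparse VEC-null cells. This difference, 0.91 ± 0.09 (adjusted p = 4.3e-05), had the direction of the Stfa3 difference and missed the size threshold. Cstb lies on chromosome 10, where the median VEC difference in sparse cells was 0.36. Cst3 had differences between -0.39 and -0.08 over the 5 comparisons.

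Stefins inhibit cysteine cathepsins, which made up most of the 12 kept genes of the protease list beside serine and aspartic enzymes. Of the 12, 2 were higher and 2 lower with VEC in confluent cells, and 3 were higher and 1 lower in sparse cells. Ctsz gave 3.3 and 1.5 in confluent VEC-positive cells, against 384.4 and 394.3 in confluent VEC-null cells, and 23.8 and 14.7 in sparse VEC-positive cells, against 458.3 and 349.9 in sparse VEC-null cells. Its differences of -3.07 ± 0.18 and -2.71 ± 0.18 (adjusted p = 3.3e-06 and 5.9e-06) depend on the offset, since the VEC-positive signals lie below it: with an offset of 200 they were -1.54 and -1.46, and with 16 they were -4.46 and -3.58. Ctsf and Ctsh were higher with VEC, at 1.92 and 1.70 in confluent cells and 1.81 and 1.90 in sparse cells. Ctsl was lower in confluent VEC-positive cells by -1.14 ± 0.09 (adjusted p = 1.8e-05). Ctsd, an aspartic protease, was higher with VEC in sparse cells by 1.44 ± 0.07 (adjusted p = 1.2e-06). By density Ctsb, Ctsd and Ctsa were higher in VEC-null cells (1.62, 1.54 and 1.53) and Ctso in VEC-positive cells (1.57).

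Receptors and partners of the member proteins came last. Scarb1, which takes up serum amyloid A among other ligands, was lower with VEC, at -1.67 ± 0.09 in confluent cells and -1.24 ± 0.09 in sparse cells (adjusted p = 2.2e-06 and 9.4e-06), and its second probe set (164289_f_at) had -1.35 and -1.33. Scarb1 lies on chromosome 5 like Il6, and less that chromosome's median its differences were -1.36 and -0.90. Lrp1, which clears complexes of serpins and proteases, gave 2172.8 and 2237.9 in sparse VEC-positive cells, against 236.8 and 254.1 in sparse VEC-null cells. It gave 310.2 and 373 in confluent VEC-positive cells, against 315.4 and 318.2 in confluent VEC-null cells. Like Stfa3, Lrp1 was bright in sparse VEC-positive cells alone, by 2.93 ± 0.12 (adjusted p = 4e-07), or 2.57 less the median of chromosome 10. Slc22a17, a receptor of Lcn2, was higher at confluence by 1.32 in both lines (SE 0.20, adjusted p = 0.00054 in VEC-positive and 5e-04 in VEC-null cells), and its VEC differences of 0.78 at both densities did not pass.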

How the data were processed

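The deposited tables hold MAS5 signals of 16 arrays, a linear intensity that the authors scaled to 500, per the labels. Trimmed means lay between 499.9 and 500.6. The submitters' notes also name a normalization on the median over all samples, which was not seen in the values. The tables carry no detection calls, and the MAS5 version is not given in the sources used.

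Gene names came from the platform annotation: 21414 probe sets had 1 symbol, 574 several and 2845 none, and 66 controls per chip were left out. Signals were analysed as log2(signal + 50). Probe sets were kept with 1 condition mean above the chip median (160 on chip A, 231 on chip B), and 14301 were tested with limma 3.58.1 in R 4.3.3, 1 fit per chip over 4 conditions with 4 residual degrees of freedom, after tests on simulated data. A gene stands by its chip A probe set before chip B, then by the brightest. All adjusted p values are limma's, by Benjamini-Hochberg.

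The members and the gene lists were chosen with earlier results of these data known. The text names every member probe set, up to 4 passing genes per list, comparison and direction, a fixed set of regulators, and the 2 genes closest to each member, and gives the rest as counts. Copies of like number did not deviate together (correlations between -0.06 and 0.08), so the numbers were not taken as pairs. Alternatives were the offset, the filter, quantile normalization, the variance trend, the probe set, averaged copies, a replicate block and leaving out each copy.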

Additional observations from a re-analysis of the deposited data

Results flagged for a closer look

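These pathway genes passed the limma test for an unequal density response of the lines, confluent minus sparse in VEC-positive cells less the same in VEC-null cells, on the log2(signal + 50) scale. A positive value means a larger rise, or a smaller fall, at confluence in VEC-positive cells. The values were 3.35 for Il1r1, 1.40 for Ltf, 1.21 for C3ar1 and 1.11 for Mt2. Negative values were -2.84 for Lrp1, -1.79 for Serpinb6a, -1.74 for Bcl3, -1.69 for Ctsb, -1.57 for Serpinb6b, -1.32 for Tfpi, -1.24 for S100a8, -1.22 for Ctsd, -1.10 for Cd59a, -1.07 for Socs3 and -1.06 for Cd14.

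Several of these calls rest on single copies. Without 1 copy the call ended, by size or by adjusted p, for 6 genes. For S100a8 it ended without the first confluent (-1.16) or first sparse (-1.13) VEC-positive copy. It also did without the second confluent or second sparse VEC-null copy (-1.02 each). For Cd14 it ended without the first confluent VEC-positive copy (-0.76) or either sparse VEC-positive copy (-1.06 each). It also did without the second confluent (-0.86) or second sparse (-0.96) VEC-null copy. For C3ar1 it ended without the second confluent (1.00) or second sparse (1.06) VEC-null copy. For Mt2 it ended, at 0.99, without the second confluent VEC-null or the first sparse VEC-positive copy. Without this last copy the calls of Cd59a (-1) and Socs3 (-0.91) ended too. With an offset of 200 some of the values fell under the size threshold. These were Ltf (0.90), S100a8 (-0.64), Cd14 (-0.73), C3ar1 (0.64), Cd59a (-0.71), Tfpi (-0.98) and Socs3 (-0.74). The second Bcl3 probe set (105489_at) had -0.22 and the second Tfpi probe set (110098_at) -0.17. Socs3 had -3.78 on 92232_at and -0.91 on 111736_at, where it did not pass.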

How the results depend on the processing

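The counts of changed pathway genes were 17 and 16 between the lines in confluent and sparse cells, 23 and 25 by density in VEC-positive and VEC-null cells, and 15 for the difference between the density responses. An offset of 200, which shrinks differences of dim genes, gave 11, 10, 15, 14 and 8, and in sparse cells the share of higher calls was 50% against 62.5%. Among the results of single named pathway genes, 38 that had passed no longer did with this offset, and 107 kept their outcome. A filter at the 75th percentile tests fewer genes and gave 10, 10 and 16 for the confluent, sparse and VEC-null density comparisons and 6 for the last. Averaging the copies, with VEC and density as additive terms and 4 cRNA samples, gave 6 at each density and 14 in each line. Leaving out single copies gave 17 to 19, 14 to 18, 23 to 23, 23 to 27 and 11 to 17. The replicate block gave 17, 16, 23, 25 and 15, and changed no call. No count and no difference of at least 1 changed sign. Smaller member differences did, over the settings other than averaged copies: Serpina3n in sparse cells (0.37, from -0.20 to 0.94) and by density in VEC-positive cells (0.11, -0.46 to 0.68), Hp by density in VEC-positive cells (0.06, -0.27 to 0.39), Lcn2 161684_r_at in confluent cells (0.03, -0.20 to 0.25) and by density in VEC-null cells (0.05, -0.07 to 0.17), Stfa3 by density in VEC-null cells (0.05, -0.01 to 0.12), and the difference between the density responses for Lcn2 160564_at (-0.04, -0.19 to 0.09). Averaged copies are left out of these ranges, since that additive fit gives 1 VEC value for both densities and 1 density value for both lines. Among the members' differences 67 values moved by more than 1 SE, most with the offset, averaged copies or single VEC-positive copies, and 407 did not. With 1 cRNA sample per condition the spread between cultures is unknown, and dim probe sets such as Stfa3 outside sparse VEC-positive cells lack detection calls.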
